A study of Mus with 10 samples.

Results

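The genes described here are 8 ligands of the tumour necrosis factor (TNF) family, *Tnfsf10* (TRAIL), *Fasl*, *Tnf*, *Lta*, *Ltb*, *Tnfsf14* (LIGHT), *Tnfsf11* (RANKL) and *Tnfsf8* (CD30 ligand). They were taken by symbol from a table of 24564 genes, and all 8 symbols were in it. The table holds RNA sequencing read counts of group 1 innate lymphoid cells (ILC1s) sorted from the liver of C57BL/6 mice, in 5 libraries of *Ncr1*gfp/gfp cells and 5 of *Ncr1*+/+ cells. *Ncr1* encodes NKp46, an activating receptor of NK cells and ILC1s, and in *Ncr1*gfp/gfp mice the gene is replaced by a green fluorescent protein (GFP) reporter, so the comparison asks what differs in these cells without NKp46. Mice of both sexes aged 6 to 8 weeks were used. *Ncr1*+/+ ILC1s were gated as lineage-negative NK1.1+ NKp46+ CD49b- CD49a+ cells and *Ncr1*gfp/gfp ILC1s with GFP in place of NKp46, so the gate differed between the genotypes in 1 marker. Figure legends of the study speak of RNA pools, but the sources do not say how many mice went into each library. The p-values below measure the spread between these libraries.

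TNF family ligands are mostly made as trimeric proteins anchored in the membrane, and some are cut off to act as soluble cytokines. TRAIL and Fas ligand bind death receptors and start apoptosis in the target cell, whereas TNF and the lymphotoxins act largely through receptors that switch on NF-kB. Liver ILC1s are known for TRAIL on their surface, which separates them from most circulating NK cells and is one route by which they kill target cells.

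The libraries held 15796253 to 22623133 counts assigned to genes, and 3 counts corresponded to 0.132 to 0.190 CPM, which are counts scaled to a common library size with TMM factors. *Ncr1* was at 1912 to 2142 CPM in the *Ncr1*+/+ libraries and at 141 to 355 CPM in the *Ncr1*gfp/gfp libraries, so the targeted gene followed the labels in every library. The summed level of 6 ILC1 marker genes was 3166 to 3462 CPM in *Ncr1*gfp/gfp and 3243 to 3446 CPM in *Ncr1*+/+ libraries. Of these, *Itga1*, which encodes CD49a, was at 971 against 779 CPM (log2 fold change 0.32, adjusted p = 0.000482 by edgeR's quasi-likelihood test), and *Il7r* at 84.5 against 166 CPM (-0.97, adjusted p = 0.00773; 0.0550 without both libraries with the highest hepatocyte marker sums). NK cell markers summed to 168 to 251 CPM in *Ncr1*gfp/gfp and 129 to 185 CPM in *Ncr1*+/+ libraries. Of the 8, 1 passed an adjusted p below 0.05, *Itgam* (log2 fold change 0.96, adjusted p = 5.6e-05 by edgeR's quasi-likelihood test). *Itga1* and *Il7r* also passed this limit, as did 1.35% of all tested genes, 0.567% in the higher and 0.785% in the lower direction. Over the 8 NK cell markers, 6 log2 fold changes were above and 2 below 0, *Klf2* at -0.87 (adjusted p = 0.207 by edgeR's quasi-likelihood test) and *S1pr5* at -0.30. Markers of B cells (at most 5.98 CPM), of ILC2s and ILC3s (at most 4.45 CPM, with *Il22*, *Il17a* and *Il5* at 0), of myeloid cells (at most 56.6 CPM) and of hepatocytes (at most 57.3 CPM) were low beside these.

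Of the 8 ligand genes, *Tnfsf8* alone differed between the genotypes at an adjusted p below 0.05, and it was higher without NKp46. The other tested ligands had fitted folds between 0.863 (*Tnfsf14*) and 1.10 (*Fasl*), with *Tnfsf10* RNA at 1.07. The exception was *Lta* at 0.564, which varied widely between libraries. Thus 1 of the 7 tested ligands passed in the higher direction and 0 in the lower one, beside 1.35% of the 11463 tested genes in either direction, 0.567% higher and 0.785% lower. At an unadjusted p below 0.05, edgeR's quasi-likelihood test gave 4 of the 7, *Tnfsf10*, *Fasl*, *Tnfsf14* and *Tnfsf8*, beside 11.4% of all tested genes. DESeq2 at an adjusted p below 0.05 gave *Tnfsf8* alone among the ligands, beside 2.75% of all tested genes. The median log2 fold change over the 7 ligands was -0.07, with 3 above and 4 below 0, and over all tested genes it was 0.00, with 5813 above and 5650 below. No ligand met the stricter call of an adjusted p below 0.05 together with a fold above 1.5 or below 0.7, which 0.733% of the tested genes met, 0.201% in the higher and 0.532% in the lower direction. In bulk RNA, fewer cells of a type and less RNA per cell cannot be told apart.

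**Figure D1:**
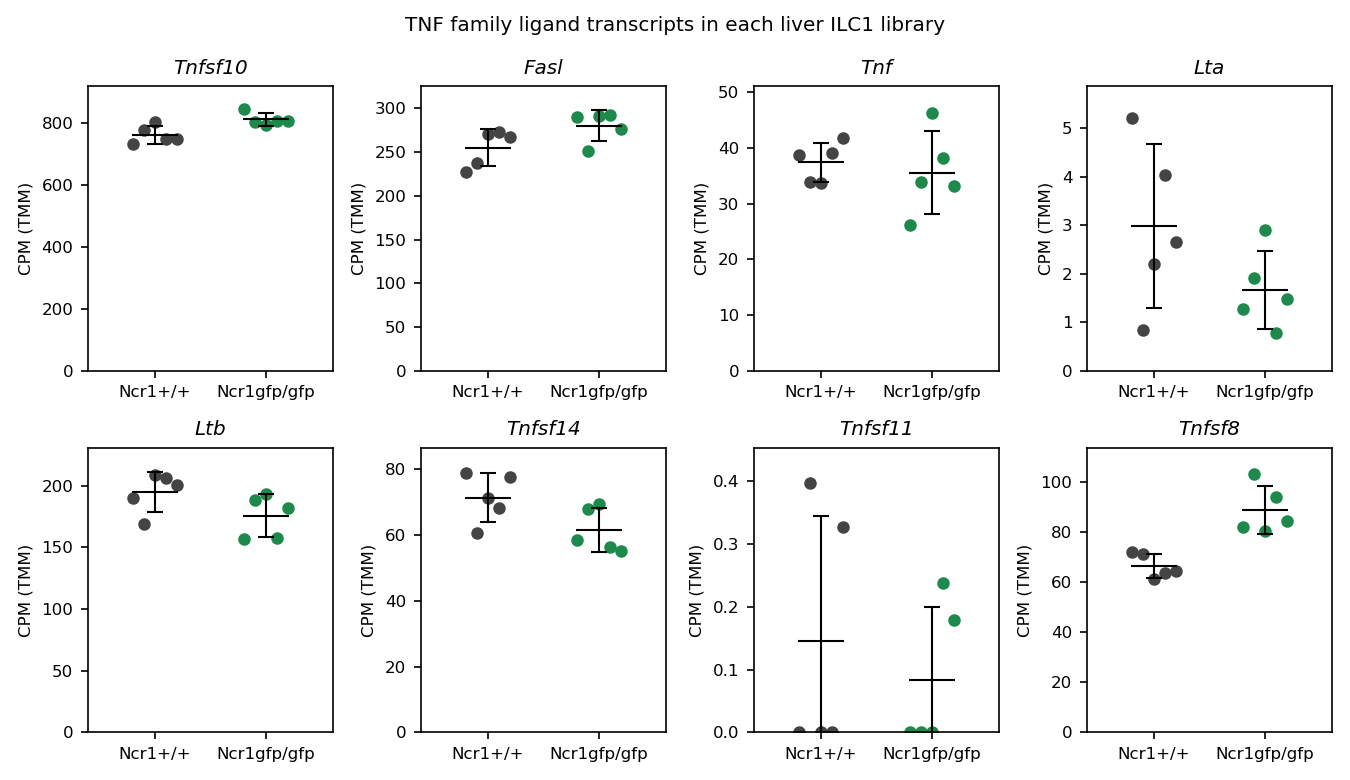
CPM of each ligand gene in each library (y axis, from 0) for *Ncr1*+/+ (dark) and *Ncr1*gfp/gfp (green), with horizontal bars for the mean and whiskers for the SD (n = 5 libraries). The *Tnfsf8* points of the genotypes do not overlap (61.0 to 71.8 against 80.4 to 103 CPM), and those of the other 7 genes do.

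The death ligands come first. *Tnfsf10* (chromosome 3, 27215999 to 27238587, plus strand, as the table gives it) encodes TRAIL. Its level in replicates 1 to 5 was 845, 804, 792, 807 and 806 CPM in *Ncr1*gfp/gfp ILC1s, and 730, 778, 802, 747 and 748 CPM in *Ncr1*+/+ ILC1s. The *Ncr1*gfp/gfp libraries were the higher ones apart from replicate 3, which lay below *Ncr1*+/+ replicate 3. The means were 811 ± 20.0 and 761 ± 28.6 CPM (SD, n = 5 each), which is a log2 fold change of 0.09 with a standard error of 0.04 and a 95% interval from 0.00 to 0.18. This difference did not pass over all genes (adjusted p = 0.428 by edgeR's quasi-likelihood test), and a two-sided exact permutation test of the CPM of this gene alone gave p = 0.0159. The interval corresponds to folds from 1.00 to 1.13. These are RNA levels, and TRAIL protein on the surface was not measured in these libraries. The authors cite earlier reports that ILC1s need NKp46 to carry TRAIL on their surface. *Tnfsf10* varied little between libraries, with a biological coefficient of variation of 0.0616 beside a median of 0.130, and a lower one was estimated for 0.192% of the tested genes.

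*Fasl* (chromosome 1, 163710823 to 163718626, minus strand) encodes Fas ligand, the other death ligand of cytotoxic lymphocytes. It was at 290, 251, 290, 293 and 276 CPM in *Ncr1*gfp/gfp replicates 1 to 5 and at 227, 237, 270, 273 and 267 CPM in *Ncr1*+/+ replicates 1 to 5. *Ncr1*gfp/gfp replicate 2 lay among the *Ncr1*+/+ values, and the other 4 lay above all of them. The means of 280 ± 17.5 and 255 ± 21.3 CPM (SD, n = 5 each) gave a log2 fold change of 0.14 with a standard error of 0.06 and an adjusted p of 0.420 by edgeR's quasi-likelihood test (exact permutation p = 0.0714).

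*Ltb*, *Tnf* and *Lta* lie side by side on chromosome 17 in the table, *Ltb* on the plus strand from 35331452 to 35333250, *Tnf* on the minus strand from 35336312 to 35338952 and *Lta* on the minus strand from 35340110 to 35342296. The gaps between them are 3061 bases from *Ltb* to *Tnf* and 1157 bases from *Tnf* to *Lta*. In spite of this closeness their levels differed widely, with *Ltb* high, *Tnf* intermediate and *Lta* low in each of the 10 libraries.

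*Ltb* encodes lymphotoxin beta, which anchors lymphotoxin alpha in the membrane and so makes the ligand of the lymphotoxin beta receptor. Its level was 157, 188, 193, 158 and 182 CPM in *Ncr1*gfp/gfp replicates 1 to 5 and 190, 169, 209, 206 and 201 CPM in *Ncr1*+/+ replicates 1 to 5. *Ncr1*gfp/gfp replicates 1 and 4 lay below every *Ncr1*+/+ library and the other 3 among them. The means were 176 ± 17.3 and 195 ± 16.3 CPM (SD, n = 5 each), and the log2 fold change of -0.15 (standard error 0.07) did not pass (adjusted p = 0.459 by edgeR's quasi-likelihood test). Reads in the stretch that *Ltb* shares with the microRNA gene *Mir6973a* on the same strand could have been left uncounted as ambiguous, and *Lta* shares a stretch with *Mir6974* in the same way.

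*Tnf* encodes TNF itself, a cytokine that macrophages and activated lymphocytes release. It was at 26.3, 33.9, 46.3, 38.2 and 33.2 CPM in *Ncr1*gfp/gfp replicates 1 to 5 and at 38.8, 34.0, 33.8, 39.0 and 41.8 CPM in *Ncr1*+/+ replicates 1 to 5. Both the lowest and the highest library were *Ncr1*gfp/gfp, and the *Ncr1*+/+ values lay between them. The means of 35.6 ± 7.38 and 37.5 ± 3.50 CPM (SD, n = 5 each) differed by a log2 fold change of -0.07 (standard error 0.12, 95% interval -0.33 to 0.18, adjusted p = 0.898 by edgeR's quasi-likelihood test). Without *Ncr1*gfp/gfp replicate 1 the log2 fold change was 0.02, so no direction can be given for *Tnf*.

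*Lta* encodes lymphotoxin alpha, which is secreted alone or held at the surface by lymphotoxin beta. Only 20, 42, 55, 13 and 25 counts fell on it in *Ncr1*gfp/gfp replicates 1 to 5, and 93, 19, 44, 80 and 49 counts in *Ncr1*+/+ replicates 1 to 5. *Ncr1*+/+ replicates 1 and 4 were the highest, and replicate 2 of that genotype was lower than 4 of the 5 *Ncr1*gfp/gfp libraries. The means of 1.67 ± 0.806 and 2.99 ± 1.69 CPM (SD, n = 5 each) gave the largest difference among the ligands, -0.83 on the log2 scale, but its 95% interval ran from -1.82 to 0.17 (adjusted p = 0.548 by edgeR's quasi-likelihood test). Its biological coefficient of variation of 0.485 was several times that of any other tested ligand.

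*Tnfsf14* (chromosome 17, 57328897 to 57333604, minus strand) encodes LIGHT, which binds the herpesvirus entry mediator and the lymphotoxin beta receptor. Its level was 58.4, 67.9, 69.2, 56.3 and 55 CPM in *Ncr1*gfp/gfp replicates 1 to 5 and 78.8, 60.4, 71.2, 68.2 and 77.6 CPM in *Ncr1*+/+ replicates 1 to 5. *Ncr1*gfp/gfp replicates 1, 4 and 5 lay below all *Ncr1*+/+ libraries, whereas replicates 2 and 3 lay among them. The means were 61.4 ± 6.69 and 71.2 ± 7.48 CPM (SD, n = 5 each), which is a log2 fold change of -0.21 with a standard error of 0.09 and a 95% interval from -0.40 to -0.03. Over all genes it did not pass (adjusted p = 0.344 by edgeR's quasi-likelihood test; exact permutation p = 0.0476 for this gene alone).

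*Tnfsf8* (chromosome 4, 63493858 to 63522318, minus strand) encodes CD30 ligand, a membrane protein of activated lymphocytes and myeloid cells that engages CD30. It was at 81.8, 103, 80.4, 93.8 and 84.1 CPM in *Ncr1*gfp/gfp replicates 1 to 5, from 1289 to 2257 counts. In *Ncr1*+/+ replicates 1 to 5 it was at 71.8, 71.2, 61.0, 63.7 and 64.4 CPM, from 1185 to 1614 counts. Every *Ncr1*gfp/gfp library was above every *Ncr1*+/+ library, a pattern that 3.11% of the tested genes showed in either direction and 1.28% in the higher one. The means were 88.7 ± 9.62 and 66.4 ± 4.80 CPM (SD, n = 5 each), so the *Ncr1*gfp/gfp mean was 133% of the *Ncr1*+/+ mean. The log2 fold change was 0.42 with a standard error of 0.08 and a 95% interval from 0.25 to 0.59 (adjusted p = 0.00822 by edgeR's quasi-likelihood test). The exact permutation test of this gene alone gave 0.00794, the smallest p that 5 against 5 libraries allow. A lower p was found in 0.584% of the tested genes, and the fold of 1.34 was below the limit of 1.5 of the stricter call. Leaving out each library in turn gave log2 fold changes from 0.36 to 0.45 and adjusted p-values from 0.00894 to 0.0364 by edgeR's quasi-likelihood test.

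The summed transcripts of genes listed as T cell markers, mostly from *Cd3g*, were higher in *Ncr1*gfp/gfp libraries, as *Tnfsf8* was. CD3 was part of what the lineage gate removed by surface staining. Summed over 8 markers, the T cell list was at 723, 845, 839, 761 and 664 CPM in *Ncr1*gfp/gfp replicates 1 to 5 and at 512, 513, 576, 613 and 614 CPM in *Ncr1*+/+ replicates 1 to 5. Of the 6 markers tested, *Cd3g*, *Cd3e* and *Cd8a* were higher in *Ncr1*gfp/gfp and *Cd28* was lower, at adjusted p-values below 0.05 by edgeR's quasi-likelihood test, beside 1.35% of all tested genes. *Cd3d* was at 13.6 against 6.61 CPM (log2 fold change 1.04, adjusted p = 0.0527 by edgeR's quasi-likelihood test). DESeq2 passed *Cd3d*, *Cd3e* and *Cd3g*, beside 2.75% of all tested genes. *Cd3g* made up most of the sum, with 686 ± 74.6 against 501 ± 53.1 CPM (SD, n = 5 each). The sum therefore mainly follows this gene and cannot be read as T cell content. Which cells the *Cd3g* RNA came from was not tested. *Cd3e* was at 21.1 against 5.71 CPM and *Cd8a* at 19.4 against 6.68 CPM, while *Cd28* was at 22.6 against 43.1 CPM. The *Cd8a* and *Cd28* calls were each lost in 5 of the 17 alternative analyses. *Cd8b1* had 1 count in all *Ncr1*gfp/gfp libraries together and 28 counts in the *Ncr1*+/+ ones, *Cd5* 78 and 12 counts, and *Cd4* overlapped at means of 2.31 and 1.94 CPM. Within *Ncr1*gfp/gfp, *Tnfsf8* was highest in replicate 2, where the T cell sum was 845 CPM, and lowest in replicate 3, where the sum was 839 CPM and *Cd3e* highest at 38.7 CPM. Within *Ncr1*+/+, *Tnfsf8* was highest in replicates 1 and 2 (71.8 and 71.2 CPM), where the T cell sum was lowest (512 and 513 CPM). The part of T cell RNA in the *Tnfsf8* result was not tested.

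**Figure D2:**
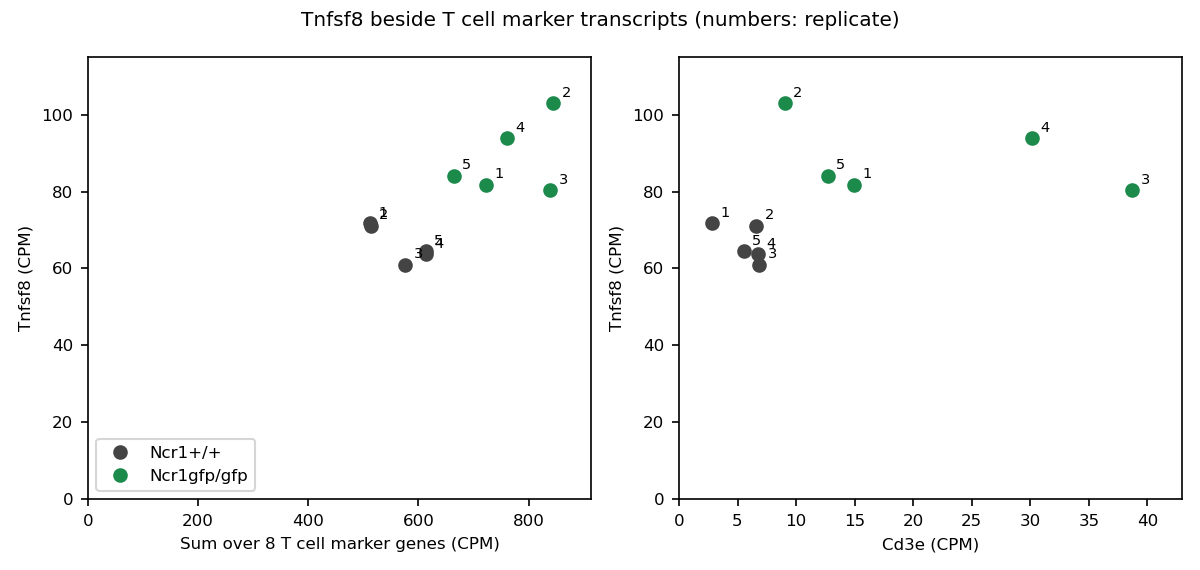
*Tnfsf8* CPM (y axis, from 0) against the summed CPM of 8 T cell marker genes (left) and against *Cd3e* CPM (right), 1 point per library with its replicate number, for *Ncr1*+/+ (dark) and *Ncr1*gfp/gfp (green). The genotypes separate on both axes, and *Cd3g* made up most of the sum on the left. Within *Ncr1*gfp/gfp, replicate 3 joins a high T cell sum (839 CPM) and the highest *Cd3e* (38.7 CPM) to the lowest *Tnfsf8* (80.4 CPM). Within *Ncr1*+/+, replicates 1 and 2 join the lowest T cell sums (512 and 513 CPM) to the highest *Tnfsf8* (71.8 and 71.2 CPM).

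*Tnfsf11* (chromosome 14, 78677253 to 78707850, minus strand) encodes RANKL, the ligand that drives osteoclast formation. Its counts in replicates 1 to 5 were 0, 0, 0, 4 and 3 for *Ncr1*gfp/gfp and 0, 9, 0, 0 and 6 for *Ncr1*+/+. With 3 of 5 libraries of each genotype at 0 it fell below the filter on low counts, and no test or fold was computed.

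To compare the ligands with one another, CPM were divided by the total exon length of each gene in kilobases, since a longer transcript gives more reads. On this scale, the *Ltb* level averaged 160 for *Ncr1*gfp/gfp and 178 for *Ncr1*+/+ ILC1s, that of *Tnfsf10* was 164 and 154, and that of *Fasl* 145 and 132 CPM per kilobase. These 3 ligands stood far above the rest and made up 81.6 to 84.5% of the summed level of the 8 genes in the *Ncr1*gfp/gfp libraries and 81.2 to 84.9% in the *Ncr1*+/+ libraries. The order of *Ltb* and *Tnfsf10* was not stable, since *Ltb* was the higher in 4 of 5 *Ncr1*+/+ and 3 of 5 *Ncr1*gfp/gfp libraries and their ranges overlapped in both genotypes. *Tnfsf10* exceeded *Fasl* in all 10 libraries. In *Ncr1*+/+ ILC1s, lower levels than that of *Tnfsf10* per kilobase were found in 98.1% of the tested genes, than that of *Ltb* in 98.4% and than that of *Fasl* in 97.4%.

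A second tier followed, with *Fasl* 3.46-fold above *Tnfsf14* in *Ncr1*+/+ and 4.41-fold above it in *Ncr1*gfp/gfp ILC1s on the per-kilobase scale. *Tnfsf14* was at 32.8 and 38.1, *Tnfsf8* at 39.8 and 29.8 and *Tnf* at 21.5 and 22.7 CPM per kilobase in *Ncr1*gfp/gfp and *Ncr1*+/+ ILC1s. *Tnfsf14* and *Tnfsf8* took different places in the genotypes, *Tnfsf14* being the higher in all 5 *Ncr1*+/+ libraries and *Tnfsf8* in 4 of 5 *Ncr1*gfp/gfp libraries. The ratio of *Tnfsf8* to *Tnfsf14* per kilobase was 1.17, 1.27, 0.975, 1.40 and 1.28 in *Ncr1*gfp/gfp replicates 1 to 5 and 0.764, 0.988, 0.719, 0.782 and 0.697 in *Ncr1*+/+ replicates 1 to 5. The ranges overlapped, since *Ncr1*gfp/gfp replicate 3 lay below *Ncr1*+/+ replicate 2. *Lta* lay 17.8-fold below *Tnf* in *Ncr1*gfp/gfp and 10.5-fold below it in *Ncr1*+/+ ILC1s, at 1.21 and 2.16 CPM per kilobase. Summed over the 8 genes, the level was 549 to 590 CPM per kilobase in *Ncr1*gfp/gfp and 520 to 580 in *Ncr1*+/+ libraries, and these ranges overlapped.

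**Figure D3:**
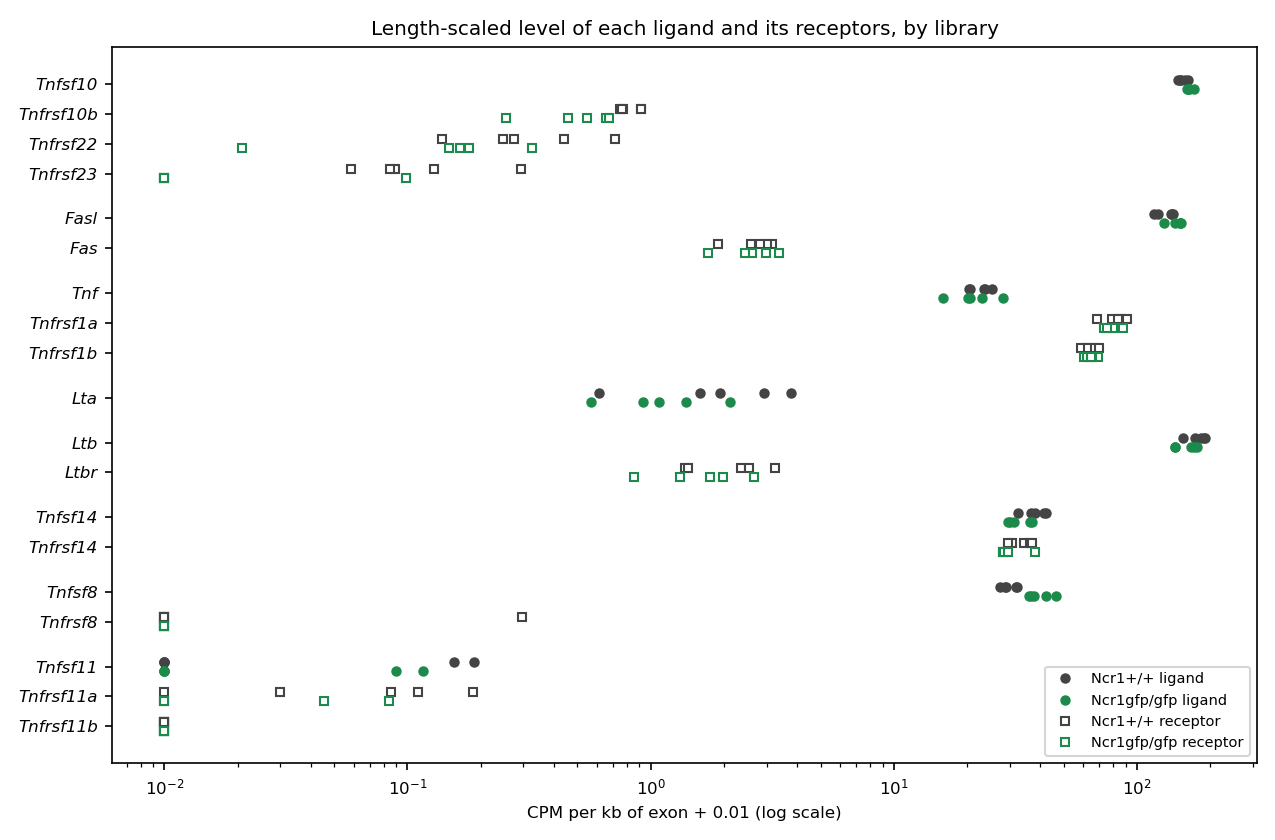
Level of each ligand (filled circles) with its receptors below it (open squares) in each library, in CPM per kilobase of exon plus 0.01 on a log axis, for *Ncr1*+/+ (dark) and *Ncr1*gfp/gfp (green). *Ltb*, *Tnfsf10* and *Fasl* lie at the right edge, their receptors *Ltbr*, *Tnfrsf10b* and *Fas* are low, and *Tnfrsf1a*, *Tnfrsf1b* and *Tnfrsf14* are the receptors with levels above 20 CPM per kilobase.

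The receptors of the 8 ligands also ranged from high to undetected. Of 11 listed receptors 7 were tested and 0 passed in either direction by edgeR's quasi-likelihood test at an adjusted p below 0.05, with 0 at an unadjusted p below 0.05 and 0 by DESeq2. Their median log2 fold change was -0.14, with 1 above and 6 below 0, beside 0.00 over all tested genes. The TNF receptors *Tnfrsf1a*, which carries a death domain, and *Tnfrsf1b*, which does not, were the highest, at 79.3 and 64.3 CPM per kilobase in *Ncr1*gfp/gfp and 81.3 and 64.2 in *Ncr1*+/+ ILC1s. Their log2 fold changes were -0.03 (95% interval -0.19 to 0.12) and 0.00 (95% interval -0.11 to 0.12). *Tnfrsf14*, the herpesvirus entry mediator bound by LIGHT, was at 30.4 against 33.5 CPM per kilobase (log2 fold change -0.14, adjusted p = 0.737 by edgeR's quasi-likelihood test).

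The receptors of the most abundant ligands were scarce in the same cells. *Fas* was at 2.62 and 2.68 CPM per kilobase in *Ncr1*gfp/gfp and *Ncr1*+/+ ILC1s (log2 fold change -0.03, standard error 0.26), and *Ltbr*, a receptor known chiefly from stromal and myeloid cells, at 1.71 and 2.18 (-0.36, standard error 0.34). *Tnfrsf10b*, the death receptor for TRAIL in the mouse, was counted 27, 45, 40, 13 and 24 times in *Ncr1*gfp/gfp and 42, 55, 48, 57 and 53 times in *Ncr1*+/+ replicates 1 to 5. The count of *Ncr1*gfp/gfp replicate 2, from the deepest library of that genotype, exceeded the lowest *Ncr1*+/+ count, but after scaling to CPM the genotypes did not overlap. The means were 1.62 ± 0.548 and 2.59 ± 0.268 CPM (SD, n = 5 each), and an absence of overlap in the lower direction was seen in 1.82% of the tested genes. Its log2 fold change of -0.67 had a standard error of 0.40 and did not pass (adjusted p = 0.567 by edgeR's quasi-likelihood test; exact permutation p = 0.00794, the smallest possible). The decoy receptors for TRAIL, *Tnfrsf22* and *Tnfrsf23*, are related genes whose reads may be partly shared, which would leave both values uncertain. Their sequences were not compared. *Tnfrsf22* was at 0.158 against 0.352 CPM per kilobase (log2 fold change -1.17, adjusted p = 0.524 by edgeR's quasi-likelihood test), and *Tnfrsf23* had 5 and 39 counts over the 5 libraries of each genotype and was not tested. For CD30 ligand and RANKL the receptors were near or at 0, with 0 and 8 counts in all for *Tnfrsf8* (CD30), 10 and 39 for *Tnfrsf11a* (RANK), and 0 in every library for *Tnfrsf11b*, the RANKL decoy osteoprotegerin.

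Of the 10 further TNF family ligands in a list of the same family, 4 were tested and 0 passed. At an unadjusted p below 0.05, edgeR's quasi-likelihood test gave 1, *Tnfsf12*, beside 11.4% of all tested genes. DESeq2 at an adjusted p below 0.05 gave 0, beside 2.75% of all tested genes. The median log2 fold change over the 4 ligands was 0.00, with 2 above and 2 below 0. *Tnfsf12* (TWEAK), a ligand involved in tissue repair, was the main one, at 24.2, 15.3, 19.4, 15.8 and 18.9 CPM in *Ncr1*gfp/gfp replicates 1 to 5 and 22.1, 20.8, 24.4, 22.7 and 24.0 CPM in *Ncr1*+/+ replicates 1 to 5. *Ncr1*gfp/gfp replicate 1 lay among the *Ncr1*+/+ values and the other 4 below them, and the log2 fold change was -0.29 with a standard error of 0.13 (adjusted p = 0.389 by edgeR's quasi-likelihood test). *Tnfsf9* (4-1BB ligand), a costimulator of T cells, was at 3.16 ± 0.824 against 3.91 ± 1.38 CPM (SD, n = 5 each). The B cell factors *Tnfsf13* (APRIL) and *Tnfsf13b* (BAFF) were low, with log2 fold changes of 0.41 and 0.29 and adjusted p-values of 0.863 and 0.919 by edgeR's quasi-likelihood test. *Cd70*, *Cd40lg*, *Tnfsf4* and *Tnfsf15* had at most 17 counts in any library, and *Tnfsf18* and *Eda* had 0 in all of them. The whole list summed to 21.6 to 30.8 CPM in *Ncr1*gfp/gfp and 26.1 to 33.3 CPM in *Ncr1*+/+ libraries, against 1439 to 1475 and 1342 to 1449 CPM for the 8 ligands.

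By edgeR's quasi-likelihood test, no gene of the lists for ligand cleavage and receptor signalling passed at an adjusted p below 0.05. Of 8 genes for ligand cleavage 6 were tested, 0 passed by edgeR's quasi-likelihood test (0 at an unadjusted p below 0.05, 0 by DESeq2) and the median log2 fold change was -0.01. *Adam17*, the sheddase that releases TNF, was at 121 ± 4.93 and 121 ± 6.59 CPM (SD, n = 5 each), *Adam10*, which cleaves Fas ligand, had a log2 fold change of -0.02, and the intramembrane proteases *Sppl2a* and *Sppl2b* had values of -0.02 and 0.04. Of 12 genes of death receptor signalling, all were tested and 0 passed by edgeR's quasi-likelihood test (2 at an unadjusted p below 0.05, *Bax* and *Xiap*, beside 11.4% of all tested genes, and 0 by DESeq2), with a median of -0.01 and 6 log2 fold changes on each side of 0. Among them the initiator caspase *Casp8* had a log2 fold change of 0.01, the mitochondrial pore formers *Bax* and *Bak1* had -0.22 and -0.07, and the caspase inhibitor *Xiap* had 0.14, each at an adjusted p of at least 0.318 by edgeR's quasi-likelihood test.

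Of 21 genes that lead from TNF receptors to NF-kB, 0 passed by edgeR's quasi-likelihood test and 1, *Traf1*, by DESeq2 (2.75% of all tested genes). Their log2 fold changes were above 0 for 8 and below 0 for 13, with a median of -0.02. At an unadjusted p below 0.05 the edgeR test gave 5, beside 11.4% of all tested genes. These 5, named after their values were seen, were *Birc3* (log2 fold change -0.19), *Map3k14* (-0.21), *Tnfaip3* (-0.46), *Traf1* (-0.25) and, in the higher direction, *Traf5* (0.23). *Tnfaip3* (A20), an NF-kB target that shuts the pathway off, was at 283 ± 43.4 against 391 ± 101 CPM (SD, n = 5 each), with a log2 fold change of -0.46, a standard error of 0.13 and an adjusted p of 0.0888 by edgeR's quasi-likelihood test. The *Ncr1*+/+ values were 518 and 466 CPM in replicates 1 and 2 but 343, 357 and 268 CPM in replicates 3 to 5. The *Ncr1*gfp/gfp values ran from 220 to 340 CPM. *Tab2* and *Rbck1*, which carry the signal from the receptor to the IkB kinase, had log2 fold changes of -0.01 and -0.02. *Ikbkb*, which encodes a subunit of that kinase, had a log2 fold change of -0.06. *Traf1*, an adaptor of TNF receptors, was chosen after its values were seen, as the only 1 of the 21 whose genotypes did not overlap, which 3.11% of all tested genes showed (107 to 137 CPM in *Ncr1*gfp/gfp and 141 to 153 CPM in *Ncr1*+/+ libraries, log2 fold change -0.25, adjusted p = 0.0713 by edgeR's quasi-likelihood test).

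**Figure D4:**
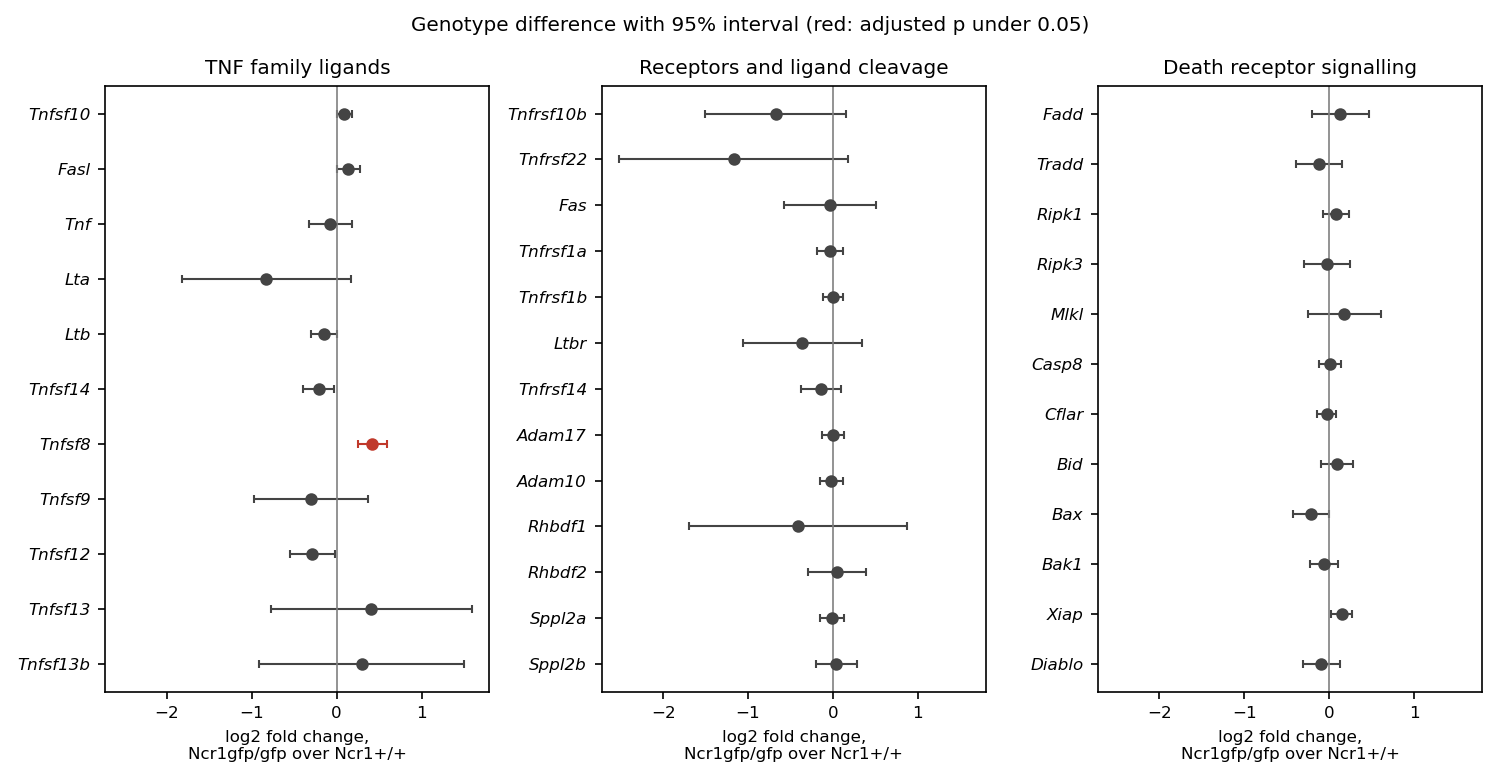
Log2 fold change of *Ncr1*gfp/gfp over *Ncr1*+/+ (x axis) with its 95% interval for every tested ligand (left), receptor or cleavage gene (middle) and death receptor signalling gene (right), with an adjusted p below 0.05 in red. *Tnfsf8* at 0.42 is the one red point, *Tnfsf10* at 0.09 has the narrowest interval among the ligands, and *Lta* at -0.83 has a wide one.

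After the mean of each genotype was subtracted, the tested genes whose log2 CPM followed *Tnfsf10* most closely over the 10 libraries were *Erlec1* (Pearson r = 0.972), *Lmbr1* (0.939), *Gbp6* (0.928), *Cdyl2* (0.926) and *Zfp248* (0.914). Without that subtraction the same values were 0.775, 0.784, 0.441, 0.412 and 0.409. These are the highest of 11463 correlations over 10 libraries that differ in depth, and they are given as a description. The sources do not say whether all libraries were prepared together. The library titles end in a number that runs in sequence except for *Ncr1*gfp/gfp replicate 5, and the meaning of this number is not stated.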

How the data were processed

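RNA of sorted liver ILC1s was amplified from 2 ng with a SMART-Seq v4 kit and sequenced as single reads of 51 cycles. The authors trimmed the reads, aligned them with STAR and deposited whole-number counts per gene from HTSeq at its default setting, which counts by strand and leaves out reads with several matches or overlapping genes. The kit does not keep strand, so the counts may hold only part of each gene's reads. The table's coordinates carry no named build, and none of the 8 starts equals that of RefSeq's GRCm38.p6 genes. From the counts, edgeR 4.0.16 in R 4.3.3 gave TMM-scaled CPM and quasi-likelihood tests of genotype after its filter on low counts, with Benjamini-Hochberg adjustment over 11463 genes. Calls needed an adjusted p below 0.05 and, where stated, a fold above 1.5 or below 0.7. Single genes were also tested by exact two-sided permutation. Alternatives were DESeq2 1.42.0, limma-voom (limma 3.58.1), other scalings and filters, a replicate block and leaving out libraries. Same-genotype libraries differed by more than sampling noise (chi-square per gene 9.18 to 24.0). The members, lists and the rule for named genes (all members, their receptors, list genes that passed, up to 4 genes of highest level per kilobase in each list and the 5 genes closest to *Tnfsf10*) were chosen with earlier results of these data known. The floor of 3 counts is given in CPM to mark low levels only, and it entered no filter or test. Some genes of the death receptor signalling list are not reported here.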

Additional observations from a re-analysis of the deposited data

Results flagged for a closer look

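A library was marked where its gap to the nearest library of its genotype exceeded 0.71 of the whole range of the 5 values, and 32 groups of 5 were examined, of which chance marks about 1 in 20. Of the ligands, *Tnfsf10* was marked in *Ncr1*gfp/gfp replicate 1, at 845 CPM, with the nearest library at 807 CPM. Without that library its log2 fold change was 0.08 in place of 0.09 and it did not pass in either case (adjusted p = 0.579 and 0.428 by edgeR's quasi-likelihood test). The summed hepatocyte markers were marked in *Ncr1*gfp/gfp replicate 3, at 57.3 CPM with the nearest library at 5.23 CPM, and in *Ncr1*+/+ replicate 1, at 32.0 CPM with the nearest at 5.50 CPM. Without both of these libraries, the log2 fold change of *Tnfsf8* was 0.48, with an adjusted p of 0.0135 by edgeR's quasi-likelihood test and no other ligand passed. This alternative was chosen after seeing the data.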

How the results depend on the processing

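*Tnfsf8* alone passed among the ligands in all 17 alternative fits, with log2 fold changes from 0.36 to 0.48. With 1 library left out, the log2 fold changes ran from 0.08 to 0.11 for *Tnfsf10*, 0.10 to 0.17 for *Fasl*, -0.19 to 0.02 for *Tnf*, -1.12 to -0.53 for *Lta*, -0.20 to -0.11 for *Ltb*, -0.27 to -0.18 for *Tnfsf14* and 0.36 to 0.45 for *Tnfsf8*. *Tnf* changed sign, to 0.0167 without *Ncr1*gfp/gfp replicate 1, and the other 6 kept theirs in every fit. The 84 genes called over all genes became 128 with DESeq2, 131 with no filter on low counts, 155 with no limit on the fold and 60 to 98 with 1 library left out.

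Same-numbered libraries of the genotypes did not deviate together (correlations of -0.03 to 0.06). This gave no sign that the numbers pair them, but 5 libraries per genotype cannot exclude it. With the replicate block, 87 genes were called and the log2 fold change of *Tnfsf8* was 0.41, with an adjusted p of 0.00985 by edgeR's quasi-likelihood test. Depth was thin for *Lta*, *Tnfrsf10b* and *Tnfsf11*, which had at most 93, 57 and 9 counts in a library.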
